A study of Mus musculus with 6 samples.

Results

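The lysosome genes of the mouse aorta were followed across 3 groups of libraries. The set held 43 genes, chosen as a list of lysosomal proteases, glycosidases, lipid hydrolases, their soluble cofactors, membrane proteins, subunits of the proton pump and the regulators Tfeb, Tfe3 and Mitf. All 43 were found among the 27815 gene identifiers of the deposited tables, and all 43 were among the 14074 genes that reached at least 1 FPKM in at least 2 libraries and were tested. FPKM corrects a read count for exon length and sequencing depth, so levels can be set beside each other across genes.

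RNA with a poly-A tail was sequenced from C57BL/6 mouse aorta, giving 6 libraries with 2 per group. The ApoE group was ApoE-/-, fed chow and 16 months old. The CKD group was a model of chronic kidney disease. Its kidney tissue was removed in stages starting at 8 weeks of age, with 1 week of recovery, and a 2% phosphate diet with 0.45% NaCl in the drinking water followed for 4 weeks. Its label for age gives 16 months, and the protocol describes much younger mice, so the age is uncertain. The Ctrl group was wild type and 2 months old, so that ApoE differed from Ctrl in both genotype and age. Whether a library held a single aorta is not stated, and the extraction protocol speaks of pools of 4 samples for miRNA work, so the p-values rest on a spread between libraries that may be technical.

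Lysosomes are acidic compartments in which hydrolases break down proteins, glycans and lipids that reach them by endocytosis, phagocytosis and autophagy. The acid is made by the vacuolar proton pump, whose V1 sector splits ATP in the cytosol and whose V0 sector carries protons through the membrane. TFEB, TFE3 and MITF are related transcription factors that bind DNA with the core CACGTG, which lies near the start of many lysosomal genes, as worked out mainly in human cells. Their entry into the nucleus is set by phosphorylation, so that the mRNA level of a regulator is not its activity. In arterial plaques, macrophages take up lipoproteins and split the cholesteryl esters in their lysosomes.

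The start regions of the members were read for these letters, because they are the letters that the regulators in the set bind. RefSeq windows (assembly GRCm38.p6) of 300 bases, from 250 before to 50 after an annotated start, were matched by symbol for 36 of the 43 members, with 46 windows in all. CACGTG, which reads the same on both strands, stood in at least 1 window of 13 of the 36 members (36.1%), against 8.09% of the 27025 genes with a window. The longer form TCACGTGA, which contains CACGTG, stood in 6 of the 36 (16.7%), against 1.12% of all genes with a window. A still longer form with a further G before and C after it stood in 0 of the 36, against 0.37%. Among the members, 8 of 18 hydrolases, 3 of 8 pump subunits and 0 of 3 regulators had CACGTG. The windows shown are Lamp1, which had the core 4 times, Ctsd, Gla and Atp6v1a, which had TCACGTGA and belong to 3 roles, and Ctss, which had no CACGTG and changed more than any other member. Capitals mark CACGTG or, where the longer form is present, TCACGTGA, and each window runs 5′ to 3′ in the direction of its gene.
Lamp1: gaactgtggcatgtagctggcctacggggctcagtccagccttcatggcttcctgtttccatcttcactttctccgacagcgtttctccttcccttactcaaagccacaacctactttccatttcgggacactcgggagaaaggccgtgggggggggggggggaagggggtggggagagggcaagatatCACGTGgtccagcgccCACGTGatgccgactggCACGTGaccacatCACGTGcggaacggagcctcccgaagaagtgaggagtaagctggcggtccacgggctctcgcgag
Ctsd: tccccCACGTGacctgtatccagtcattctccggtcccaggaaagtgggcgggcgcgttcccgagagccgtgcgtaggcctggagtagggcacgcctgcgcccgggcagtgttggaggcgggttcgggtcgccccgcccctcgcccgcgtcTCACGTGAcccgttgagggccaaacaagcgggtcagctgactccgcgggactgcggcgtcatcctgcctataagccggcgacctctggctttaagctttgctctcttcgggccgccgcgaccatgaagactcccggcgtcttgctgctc
Gla: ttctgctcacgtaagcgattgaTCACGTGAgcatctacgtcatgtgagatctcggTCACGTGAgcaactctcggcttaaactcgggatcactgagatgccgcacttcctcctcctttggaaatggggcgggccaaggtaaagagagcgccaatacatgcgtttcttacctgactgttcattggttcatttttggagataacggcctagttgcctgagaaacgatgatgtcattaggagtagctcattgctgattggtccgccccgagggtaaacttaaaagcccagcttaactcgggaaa
Atp6v1a: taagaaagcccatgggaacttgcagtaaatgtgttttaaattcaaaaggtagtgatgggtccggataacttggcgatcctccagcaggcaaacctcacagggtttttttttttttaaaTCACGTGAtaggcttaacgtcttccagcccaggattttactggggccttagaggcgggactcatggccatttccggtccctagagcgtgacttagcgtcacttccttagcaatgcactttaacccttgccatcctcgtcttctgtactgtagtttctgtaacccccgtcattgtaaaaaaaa
Ctss: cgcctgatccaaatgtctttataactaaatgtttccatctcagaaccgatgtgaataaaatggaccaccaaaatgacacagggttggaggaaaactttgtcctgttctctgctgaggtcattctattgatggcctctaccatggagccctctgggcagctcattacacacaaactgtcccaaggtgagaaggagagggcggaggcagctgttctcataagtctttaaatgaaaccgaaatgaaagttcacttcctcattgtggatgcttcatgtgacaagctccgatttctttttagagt
The Lamp1 window is chr8:13158911-13159210, plus strand, that of Ctsd chr7:142387778-142388077, minus strand, that of Gla chrX:134600956-134601255, minus strand, that of Atp6v1a chr16:44139210-44139509, minus strand, and that of Ctss chr3:95526536-95526835, plus strand. In Lamp1 the cores began 61, 45, 28 and 15 bases before the start. In Gla both copies lay far from the start, beginning 227 and 194 bases before it. A match describes the letters of the window and is not a measured binding site.

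The depth, recovered from the steps of the values, was 14442500 reads in the shallowest library and 16639800 in the deepest, so that at 2 kb of exon each read added 0.0300 to 0.0346 FPKM. The 40 members whose values stepped in whole reads had between 93 reads, for Atp6v0c in the second Ctrl library, and 241371 reads, for Ctsb in the second ApoE library. Lipa, Npc1 and Atp6v1c1 did not step in whole reads. Transcripts of the deleted gene Apoe were still listed at 13.2 and 11.4 FPKM in ApoE, against 1410.4 and 1447 in CKD and 756 and 627 in Ctrl. Mitochondrial genes took 10.4 and 11.8% of reads in ApoE, 10.7 and 6.12% in CKD and 3.36 and 4.49% in Ctrl. The library kit does not mark strand, and exons of 13 members overlap another annotated gene, namely Ctsa, Ctsb, Ctsd, Ctsl, Ctsz, Glb1, Hexa, Grn, Lamp1, Npc1, Atp6v1e1, Atp6v1h and Atp6v0b, whose values are uncertain to that extent.

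The ApoE aorta was first set against the young wild-type aorta. Members of every role rose in ApoE, the proteases by the most. Of the 43 members, 36 rose, where 19.8% of all tested genes rose, and 1 fell, Scarb2, where 24.3% of all tested genes fell. Together 44.1% of all tested genes were called, at a Benjamini-Hochberg adjusted p below 0.05 in limma on log2(FPKM + 1). The members' median log2 fold change was 1.40, against -0.07 over all genes. The proteases had a median of 3.14 with 9 of 10 genes higher, the glycosidases 1.62 with 7 of 8, the lipid hydrolases 0.95 with 2 of 3 and the soluble cofactors 2.20 with 3 of 3. The membrane proteins had 0.66 with 3 higher and 1 lower of 5, the V1 sector of the pump 1.37 with 6 of 6, and the V0 sector with its accessory subunit 0.97 with 4 of 5. All 21 hydrolases together had a median of 1.90 and the 11 pump subunits 1.30, while the 3 regulators had 0.57. Both ApoE libraries lay above both Ctrl libraries in 39 members, where this held for 36.4% of all tested genes, and below them in 2, Smpd1 and Scarb2, where this held for 43% of all tested genes.

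Genes of other cell types moved with the same contrast. Of 17 macrophage markers, 15 rose in ApoE, where 19.8% of all tested genes rose and 24.3% fell. Mrc1, at 1.03, and Cd163, at -0.90, were not called (limma adjusted p = 0.108 and 0.133). The summed level of the 17 was 9391 to 13827 FPKM in ApoE, 1269 to 2037 FPKM in CKD and 588 to 642 FPKM in Ctrl. Lyz2 alone held 3885 and 7240 FPKM of the sums in ApoE. None of the 17 was below 0.1 FPKM in all 6 libraries, and the lowest in Ctrl were Trem2 at 0.778 and 0.334 FPKM and Itgam at 0.682 and 0.947 FPKM. All 10 contractile smooth muscle markers fell, with sums of 618 to 707 FPKM in ApoE, 3753 to 6359 FPKM in CKD and 8047 to 8991 FPKM in Ctrl. White adipocyte markers were also higher, 8 of 10 rising, with sums of 3280.4 to 3437 FPKM in ApoE, 2531 to 7568 FPKM in CKD and 404 to 987 FPKM in Ctrl. Of 8 osteoclast markers, 4 reached the level for testing and 1, the acid phosphatase Acp5, rose, while Calcr was below 0.1 FPKM in all 6 libraries. Mast cell markers rose in 4 of 7 and mesothelium markers in 4 of 5 tested. Of 5 tested cardiomyocyte markers 2 rose and 1 fell, and of 7 fibroblast markers 4 fell and 0 rose. The part of these cell types in the lysosome genes was not tested, and in whole aorta more cells of a type and more RNA per cell cannot be told apart.

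**Figure D1:**
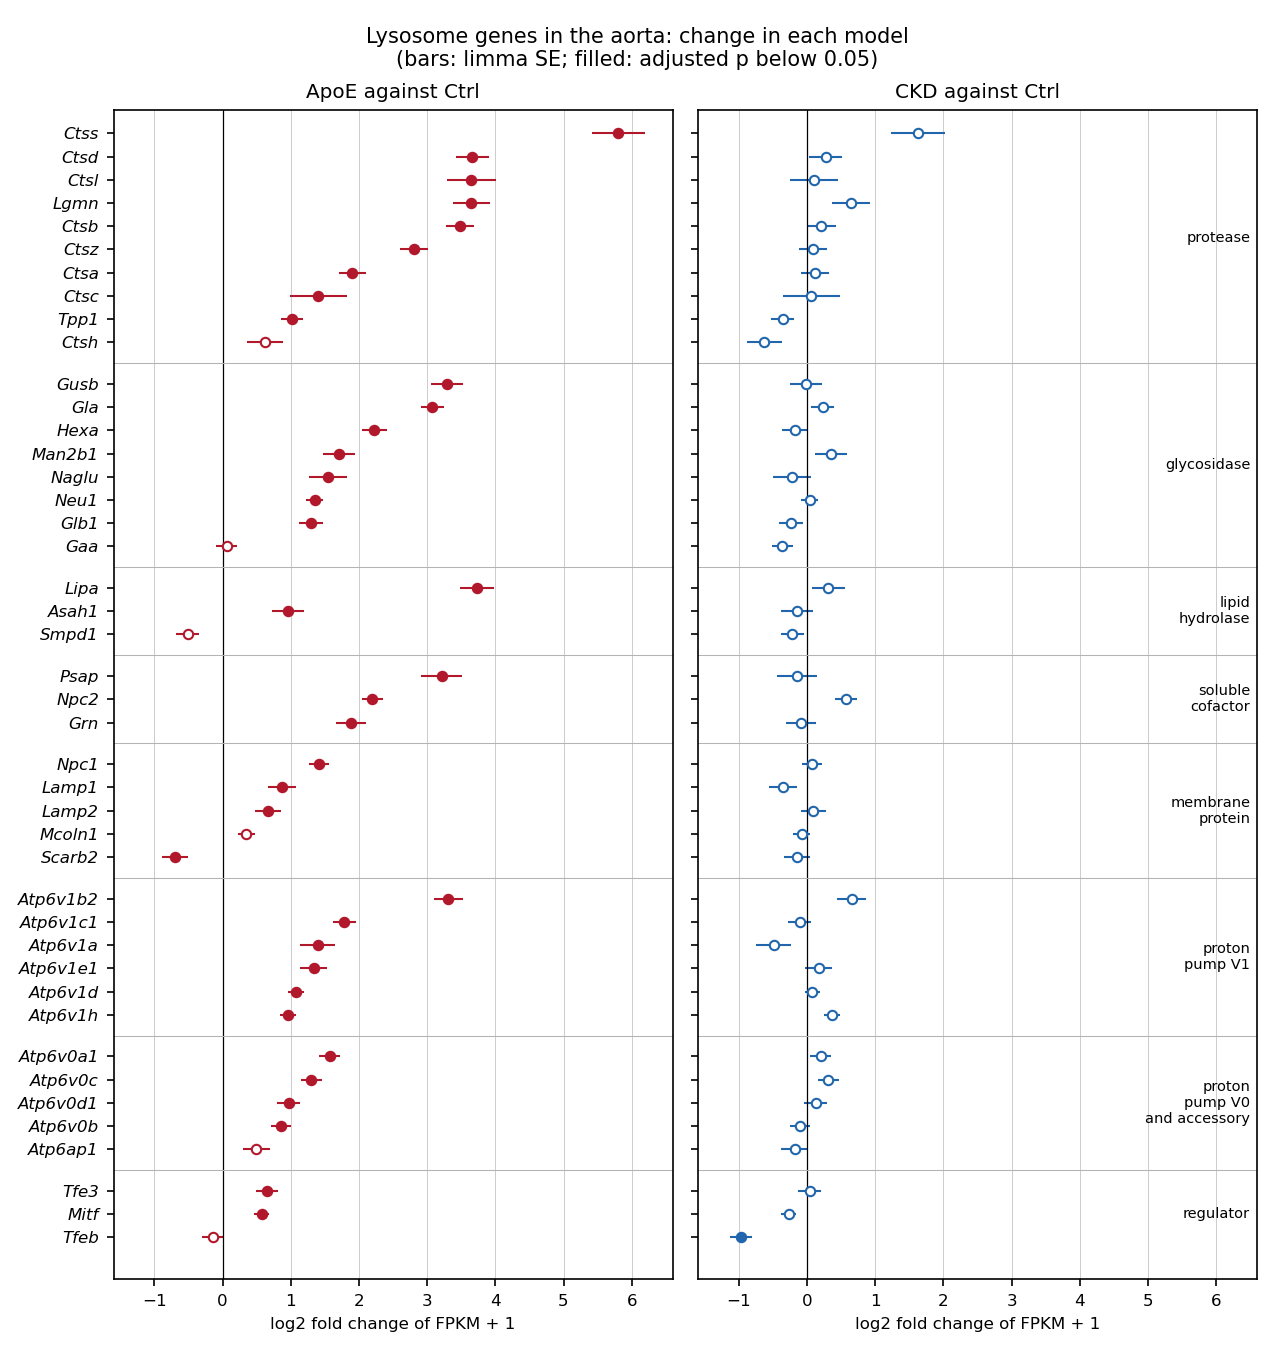
Log2 fold change of FPKM + 1 for each of the 43 members, by role, for ApoE against Ctrl (left) and CKD against Ctrl (right). Points are limma estimates, bars are limma standard errors and filled points have an adjusted p below 0.05. In ApoE 36 members rose and Scarb2 fell, with proteases reaching 5.80, and in CKD the only filled point is Tfeb at -0.97.

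The proteases were led by cathepsin S. Gene positions here and below are on GRCm38. Ctss (ENSMUSG00000038642; chromosome 3, 95526786 to 95556403), a cysteine protease that trims the invariant chain of MHC class II and also cuts elastin, had 1756 and 2209.9 FPKM in the ApoE libraries, 71.9 and 162 FPKM in the CKD libraries and 37.7 and 31.2 FPKM in the Ctrl libraries. The ApoE libraries stood far above all others, and the CKD libraries lay above the Ctrl libraries without overlap. Its log2 fold change in ApoE against Ctrl was 5.80 (SE 0.39, limma adjusted p = 0.000347), a ratio of mean FPKM of 57.5. In CKD against Ctrl it was 1.63 (SE 0.39, limma adjusted p = 0.0667), which missed the threshold, and it passed without the second CKD library at 1.05 (adjusted p = 0.0392).

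Ctsb (ENSMUSG00000021939; chromosome 14, 63122462 to 63145923), cathepsin B, was the most abundant protease of the Ctrl aorta and had 2061 and 2683 FPKM in the ApoE libraries, 222 and 264 FPKM in the CKD libraries and 209.7 and 209.8 FPKM in the Ctrl libraries. Its log2 fold change in ApoE was 3.48 (SE 0.21, limma adjusted p = 0.000271), and both CKD libraries lay just above both Ctrl libraries. Ctsd (ENSMUSG00000007891; chromosome 7, 142375911 to 142388038), the aspartic protease cathepsin D, had 1162 and 1789.7 FPKM in ApoE, 138 and 135 FPKM in CKD and 113 and 113 FPKM in Ctrl. It is a gene with TCACGTGA in the window shown, and its log2 fold change in ApoE was 3.66 (SE 0.24, limma adjusted p = 0.000312). Ctsl (ENSMUSG00000021477; chromosome 13, 64359337 to 64370890), cathepsin L, stood at 717 and 1293 FPKM in ApoE, 64.2 and 103 in CKD and 81.0 and 71.0 in Ctrl. The 2 ApoE libraries differed more for Ctsl than for Ctsb, yet both were above every other library, and the log2 fold change in ApoE was 3.65 (SE 0.35, limma adjusted p = 0.00095). Lgmn (ENSMUSG00000021190; chromosome 12, 102394084 to 102439813), legumain, which cuts after asparagine and processes cathepsins, had 636 and 689 FPKM in ApoE, 61.5 and 108 in CKD and 53.5 and 50.2 in Ctrl, a log2 fold change in ApoE of 3.65 (SE 0.28, limma adjusted p = 0.000463).

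The other 5 proteases moved less. Ctsz, Ctsa, Ctsc and Tpp1, which remove amino acids or short peptides from the ends of proteins, rose in ApoE by log2 fold changes of 2.81, 1.90, 1.40 and 1.02. Ctsc was the least steady of them, at 74.3 and 36.0 FPKM in the ApoE libraries, with an adjusted p of 0.0394 in limma that became 0.157 without the first ApoE library, 0.117 without the first Ctrl library and 0.133 without the second. Ctsh, cathepsin H, had 105 and 115 FPKM in ApoE, 35.6 and 58.3 in CKD and 77.8 and 64.9 in Ctrl. In Ctsh the ApoE libraries were the highest and the CKD libraries the lowest, without overlap between any pair of groups, and the ApoE change of 0.62 was not called (limma adjusted p = 0.0985); without either CKD library it was, at 0.0190 without the first and 0.0189 without the second.

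**Figure D2:**
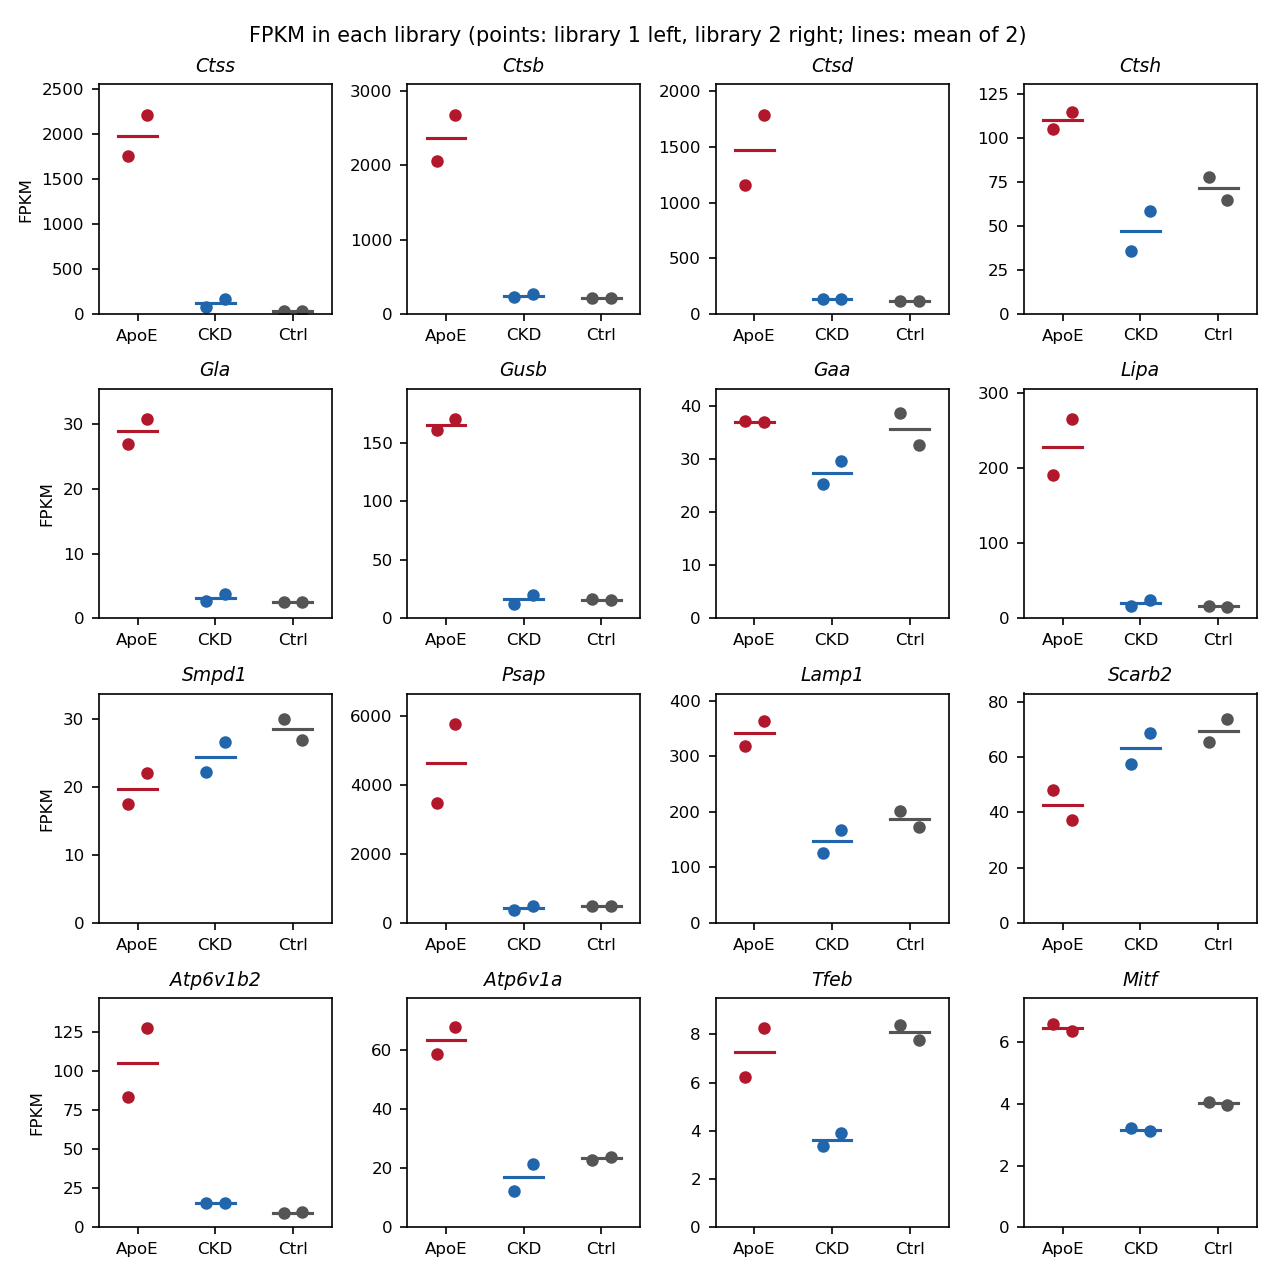
FPKM of 16 lysosome genes in each library, with the 2 libraries of a group as points and their mean as a line; every vertical axis starts at 0 and has its own scale. Ctss, Ctsb, Ctsd, Gla, Gusb, Lipa, Psap and Atp6v1b2 were highest in ApoE, Gaa and Tfeb overlapped between ApoE and Ctrl, and Scarb2 and Smpd1 were lowest in ApoE.

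Glycosidases take sugars off glycoproteins, glycolipids and glycosaminoglycans. Gusb (ENSMUSG00000025534; chromosome 5, 129989011 to 130003049), beta-glucuronidase, had 161 and 170.3 FPKM in the ApoE libraries, 12.2 and 20.1 FPKM in the CKD libraries and 16.3 and 15.6 FPKM in the Ctrl libraries. Its level in ApoE was 10.4 times the Ctrl mean, a log2 fold change of 3.30 (SE 0.23, limma adjusted p = 0.000396), and the CKD and Ctrl libraries overlapped. Gla (ENSMUSG00000031266; chromosome X, 134588149 to 134601125), the alpha-galactosidase that is lost in Fabry disease, had 26.9 and 30.8 FPKM in ApoE, 2.61 and 3.75 FPKM in CKD and 2.54 and 2.53 FPKM in Ctrl. It was a low gene in Ctrl and rose in ApoE by a log2 fold change of 3.08 (SE 0.17, limma adjusted p = 0.000225). Hexa (ENSMUSG00000025232; chromosome 9, 59539540 to 59565109), the alpha subunit of beta-hexosaminidase, was the most abundant glycosidase in Ctrl and had 343 and 408 FPKM in ApoE, 62.5 and 78.7 in CKD and 81.4 and 77.1 in Ctrl, a log2 fold change in ApoE of 2.23 (SE 0.19, limma adjusted p = 0.000603). Man2b1 (ENSMUSG00000005142; chromosome 8, 85083270 to 85098282), the lysosomal alpha-mannosidase, had 50.6 and 69.9 FPKM in ApoE, 18.8 and 27.4 in CKD and 18.4 and 16.7 in Ctrl. The 3 groups did not overlap for Man2b1, the ApoE change was 1.70 (SE 0.24, limma adjusted p = 0.00313) and the CKD change of 0.35 was not called.

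Gaa (ENSMUSG00000025579; chromosome 11, 119267887 to 119285454), the acid alpha-glucosidase that degrades glycogen, did not follow the others. It had 37.1 and 37.0 FPKM in the ApoE libraries, 25.2 and 29.7 FPKM in the CKD libraries and 38.6 and 32.7 FPKM in the Ctrl libraries. The ApoE libraries lay between the 2 Ctrl libraries, and the CKD libraries were below both groups. The log2 fold change in ApoE against Ctrl was 0.06 (SE 0.15, limma adjusted p = 0.774). Neu1, Glb1 and Naglu, which take off sialic acid, galactose and N-acetylglucosamine, rose in ApoE by log2 fold changes between 1.29 for Glb1 and 1.54 for Naglu.

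The 3 lipid hydrolases went different ways. Lipa (ENSMUSG00000024781; chromosome 19, 34492318 to 34527474), the acid lipase that splits cholesteryl esters and triglycerides of lipoproteins, had 191 and 265 FPKM in the ApoE libraries, 16.6 and 24.5 FPKM in the CKD libraries and 16.5 and 15.6 FPKM in the Ctrl libraries. Its mean in ApoE was 14.2 times that in Ctrl, the highest ratio among members after Ctss, with a log2 fold change of 3.73 (SE 0.24, limma adjusted p = 0.000324). Asah1 (ENSMUSG00000031591; chromosome 8, 41340197 to 41374773), acid ceramidase, had 80.0 and 76.2 FPKM in ApoE, 28.3 and 45.4 in CKD and 38.0 and 41.8 in Ctrl, and rose in ApoE by 0.95 (SE 0.24, limma adjusted p = 0.0221). That call was lost without either Ctrl library (0.117 without the first, 0.0796 without the second) and without either ApoE library (0.0952 and 0.0902). Smpd1 (ENSMUSG00000037049; chromosome 7, 105554360 to 105558389), acid sphingomyelinase, had 17.5 and 22.0 FPKM in ApoE, 22.2 and 26.7 in CKD and 30.0 and 26.9 in Ctrl. Both ApoE libraries of Smpd1 were below every other library, at a log2 fold change of -0.52 (SE 0.17), and its adjusted p of 0.0522 in limma just missed the threshold; it was 0.0397 without either CKD library.

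Among the soluble cofactors, the saposins and NPC2 bring lipids to the enzymes or the membrane. Psap (ENSMUSG00000004207; chromosome 10, 60277627 to 60302597), prosaposin, the precursor of the saposins that activate sphingolipid hydrolases, was the most abundant member in all 6 libraries, with 3479 and 5779.9 FPKM in the ApoE libraries, 384 and 494 FPKM in the CKD libraries and 484 and 482 FPKM in the Ctrl libraries. The second ApoE library was well above the first, and both were several times any other library. Its log2 fold change in ApoE was 3.21 (SE 0.30, limma adjusted p = 0.00081). Npc2 (ENSMUSG00000021242; chromosome 12, 84754562 to 84773152), which hands cholesterol from the lumen to the membrane protein NPC1, had 172 and 206 FPKM in ApoE, 61.0 and 59.6 in CKD and 40.2 and 40.3 in Ctrl. The CKD libraries of Npc2 lay between the other groups, and the log2 fold changes were 2.20 in ApoE (SE 0.16, limma adjusted p = 0.000385) and 0.57 in CKD (SE 0.16, limma adjusted p = 0.082, not called). Grn, progranulin, a secreted glycoprotein that is cut into granulins in lysosomes, rose in ApoE by 1.89.

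The membrane proteins changed least among the structural parts. Lamp1 (ENSMUSG00000031447; chromosome 8, 13159161 to 13175338), a heavily glycosylated protein that lines the lysosomal membrane, had 319 and 364 FPKM in the ApoE libraries, 127 and 168 FPKM in the CKD libraries and 201 and 172 FPKM in the Ctrl libraries. It rose in ApoE by 0.87 (SE 0.21, limma adjusted p = 0.0195). Its window is the one shown with 4 cores. The call was lost without either Ctrl library (0.0815 and 0.134) and without either ApoE library (0.0598 and 0.106). Npc1 (ENSMUSG00000024413; chromosome 18, 12189692 to 12236400), the transporter that moves cholesterol out of the lysosome, had 11.9 and 14.8 FPKM in ApoE, 4.43 and 4.82 FPKM in CKD and 4.20 and 4.51 FPKM in Ctrl, a log2 fold change in ApoE of 1.42 (SE 0.14, limma adjusted p = 0.00103). Lamp2, which also takes part in autophagy, rose by 0.66 (limma adjusted p = 0.0337), a call lost without the first Ctrl library (0.147), the second (0.139) or the first ApoE library (0.140) and with the replicate block (0.0653). The calcium channel Mcoln1, at 0.35, was not called (limma adjusted p = 0.0653).

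Scarb2 (ENSMUSG00000029426; chromosome 5, 92441314 to 92506833), LIMP-2, the membrane receptor that carries glucocerebrosidase to lysosomes, was the member that fell in ApoE. It had 48.1 and 37.3 FPKM in the ApoE libraries, 57.4 and 68.7 FPKM in the CKD libraries and 65.5 and 73.5 FPKM in the Ctrl libraries. Both ApoE libraries were below both Ctrl and both CKD libraries. The log2 fold change in ApoE against Ctrl was -0.70 (SE 0.19, limma adjusted p = 0.0291). That call was lost without the first or the second Ctrl library or the second ApoE library, at log2 fold changes of -0.78, -0.62 and -0.52. It was also lost with no filter (limma adjusted p = 0.0588) and with the replicate block (0.0599). With the level of the white adipocyte markers as a covariate the limma adjusted p was 0.419.

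In the pump, the V1 sector was higher in ApoE in all 6 members. Atp6v1b2 (ENSMUSG00000006273; chromosome 8, 69088646 to 69113711), the B subunit that completes the ATP-splitting ring, had 83.4 and 128 FPKM in the ApoE libraries, 15.7 and 15.5 FPKM in the CKD libraries and 9.20 and 9.87 FPKM in the Ctrl libraries. It had the largest change among the 11 listed pump members, at 11.1 times the Ctrl mean, with a log2 fold change of 3.31 (SE 0.21, limma adjusted p = 0.000316). Atp6v1a (ENSMUSG00000052459; chromosome 16, 44085402 to 44139705), the A subunit of the same ring, had 58.7 and 67.8 FPKM in ApoE, 12.4 and 21.6 in CKD and 22.9 and 23.8 in Ctrl. Its ApoE change was smaller, 1.40 (SE 0.26, limma adjusted p = 0.00815, and 0.0568 without the second ApoE library), and the CKD libraries were below the Ctrl libraries. The A and B subunits assemble in equal number, and at the mRNA level Atp6v1a exceeded Atp6v1b2 in both Ctrl libraries, whereas Atp6v1b2 exceeded Atp6v1a in both ApoE libraries. The CKD libraries were divided, with Atp6v1b2 higher in the first and Atp6v1a higher in the second. Atp6v1c1 (ENSMUSG00000022295; chromosome 15, 38661933 to 38692446), the C subunit that links the sectors when the pump assembles, had 75.3 and 86.4 FPKM in ApoE, 19.0 and 23.3 in CKD and 21.0 and 24.5 in Ctrl, a log2 fold change in ApoE of 1.78 (SE 0.17, limma adjusted p = 0.000834). The D, E1 and H subunits rose by 1.08, 1.34 and 0.95. With the level of the white adipocyte markers as a covariate, Atp6v1d and Atp6v1e1 were not called (limma adjusted p = 0.0544 and 0.126).

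The 5 listed members of the V0 sector had a lower median change than the 6 of V1. Atp6v0a1 (ENSMUSG00000019302; chromosome 11, 101009452 to 101063719), an isoform of the large membrane subunit a, had 35.3 and 45.5 FPKM in the ApoE libraries, 15.4 and 14.4 FPKM in the CKD libraries and 13.1 and 12.6 FPKM in the Ctrl libraries, with a log2 fold change in ApoE of 1.57 (SE 0.15, limma adjusted p = 0.000949). The CKD libraries lay just above the Ctrl libraries. Atp6v0c (ENSMUSG00000024121; chromosome 17, 24163866 to 24169702), the proteolipid of the proton-carrying ring, was listed at 6.82 and 6.32 FPKM in ApoE, 3.16 and 2.52 in CKD and 2.36 and 1.82 in Ctrl, and rose in ApoE by 1.30 (SE 0.16, limma adjusted p = 0.00185). Its level and change are uncertain, since reads may have been divided among near copies. The pseudogene Atp6v0c-ps2 is 99.7% identical over 387 aligned bases and Atp6v0c-ps1 97.2% identical over 389. Atp6v0c-ps2 had a mean of 5.93 FPKM over the 6 libraries, above Atp6v0c in every CKD and Ctrl library. The call of Atp6v0c was lost with the level of the white adipocyte markers as a covariate (limma adjusted p = 0.0837). Atp6ap1 (ENSMUSG00000019087; chromosome X, 74297097 to 74304721), an accessory subunit needed for assembly, was the most abundant pump member in Ctrl and had 115 and 112 FPKM in ApoE, 59.6 and 83.6 in CKD and 82.9 and 77.5 in Ctrl. Its ApoE change of 0.49 (SE 0.20) was not called in limma (adjusted p = 0.092), and was called without the first or the second CKD library (0.0184 and 0.0185). Atp6v0b and Atp6v0d1 rose by 0.86 and 0.97, and both calls were lost without either Ctrl library. Both were also lost with the adipocyte covariate (limma adjusted p = 0.105 and 0.0825). Without the first and the second Ctrl library the adjusted p in limma was 0.0501 and 0.0638 for Atp6v0b, and 0.0550 and 0.0532 for Atp6v0d1.

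**Figure D3:**
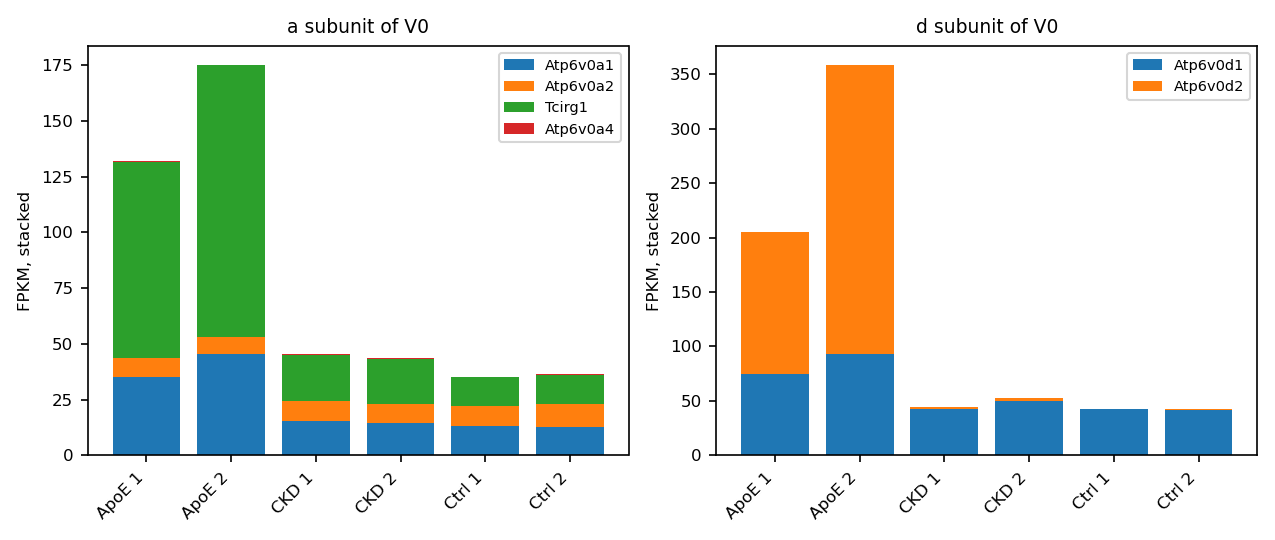
Stacked FPKM of the genes for the a subunit (left) and the d subunit (right) of the V0 sector in each library. Atp6v0d2 made up 63.3 and 73.9% of the d subunit total in ApoE, 3.14 and 4.93% in CKD and 0.674 and 0.745% in Ctrl, and Tcirg1 66.8 and 69.5% of the a subunit total in ApoE, 45.6 and 46.0% in CKD and 36.9 and 36.2% in Ctrl.

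Where the pump has alternative subunits, the makeup of the V0 sector differed between the groups and that of V1 hardly did. The member Atp6v0d1 made up 36.7 and 26.1% of d subunit FPKM in ApoE, 96.9 and 95.1% in CKD and 99.3 and 99.3% in Ctrl, the rest being Atp6v0d2. The member Atp6v0a1 made up 26.8 and 26.0% of a subunit FPKM in ApoE, 34.0 and 33.2% in CKD and 36.9 and 34.6% in Ctrl, with Tcirg1 the larger part in ApoE. In FPKM both Atp6v0a1 and Atp6v0d1 were nevertheless higher in ApoE than in Ctrl, as given above. For the B and C subunits, Atp6v1b2 and Atp6v1c1 made up at least 99.4% in the ApoE libraries, at least 97.3% in the CKD libraries and at least 99.9% in the Ctrl libraries. These shares are descriptions without a test.

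The regulators had smaller changes in ApoE than most other members. Tfeb (ENSMUSG00000023990; chromosome 17, 47737030 to 47792419) had 6.24 and 8.27 FPKM in the ApoE libraries, 3.36 and 3.90 FPKM in the CKD libraries and 8.40 and 7.77 FPKM in the Ctrl libraries. The ApoE and Ctrl libraries overlapped, and both CKD libraries were below all others. The log2 fold change was -0.15 in ApoE against Ctrl (SE 0.16, limma adjusted p = 0.482) and -0.97 in CKD against Ctrl (SE 0.16, limma adjusted p = 0.0372), a ratio of mean FPKM of 0.449 in CKD. Tfe3 (ENSMUSG00000000134; chromosome X, 7762560 to 7775202) had 7.68 and 7.75 FPKM in ApoE, 3.91 and 5.64 in CKD and 4.56 and 4.55 in Ctrl, and its ApoE change was 0.65 (SE 0.17, limma adjusted p = 0.0245). Leaving out a library of either group ended that call, with adjusted p from 0.0902 without the first ApoE library to 0.112 without the first Ctrl library, 0.104 without the second ApoE library and 0.106 without the second Ctrl library. Mitf (ENSMUSG00000035158; chromosome 6, 97807052 to 98021349), which also directs melanocyte and osteoclast genes, had 6.59 and 6.36 FPKM in ApoE, 3.21 and 3.13 in CKD and 4.06 and 3.98 in Ctrl, and rose in ApoE by 0.57 (SE 0.11, limma adjusted p = 0.00971, and 0.0733 and 0.0760 without the first and the second Ctrl library). With the level of the white adipocyte markers as a covariate, the calls of Tfe3 and Mitf were lost as well (limma adjusted p = 0.0694 and 0.21). The related factor Tfec is not a member. It stood at 3.06 and 3.48 FPKM in ApoE, 0.133 and 0.248 in CKD and 0.279 and 0.177 in Ctrl. Tfec reached the level for testing only through the ApoE libraries, so its log2 fold change of 1.80 in ApoE against Ctrl is a description without a test. Set beside the windows described earlier, the 13 members with CACGTG had a median log2 fold change in ApoE of 1.40 (range 0.06 to 3.66), the 23 without it 1.35 (-0.70 to 5.80) and the 7 with no window 1.42 (0.62 to 3.48), so the medians lay close together.

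The kidney disease model was then set against the same 2 Ctrl libraries. Of the 43 members, 0 rose, where 2.23% of all tested genes rose, and 1 fell, where 3.21% of all tested genes fell. In either direction limma called 5.44% of all tested genes. For a list of 43 the counts of 0 and 1 lay near the shares over all genes. At an unadjusted p below 0.05 there were 5 members in either direction, among 4217 of the 14074 genes. The median log2 fold change of the members was 0.04, against -0.03 over all genes, with 0.06 for the 21 hydrolases, 0.13 for the 11 pump subunits and -0.27 for the 3 regulators. Both CKD libraries lay above both Ctrl libraries in 15 members, against 29.1% of all tested genes, below them in 10, against 35.1%, and overlapped with them in 18. Of the 17 macrophage markers 8 rose in CKD, with 5 of 7 mast cell markers, 5 of 5 tested mesothelium markers and 3 of 5 tested cardiomyocyte markers. Among these, the mast cell gene Hdc and the mesothelium genes Upk1b and Lrrn4 would not have been tested without the CKD libraries. Their rise was thus favoured by the filter. Most of these marker calls were lost under other settings, since over all genes only 1 was called higher in CKD with no filter or with only the 4 libraries compared, 0 with the adipocyte covariate or without either Ctrl library, and 3 without either ApoE library. Their part in the members' values was not tested.

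The member that fell in CKD was Tfeb, the regulator described above, whose 2 CKD libraries at 3.36 and 3.90 FPKM were the lowest of the 6. That call depended on every library but the second of CKD. Its adjusted p in limma was 0.226 and 0.165 without the first and the second Ctrl library, 0.0636 and 0.0622 without the first and the second ApoE library, and 0.105 without the first CKD library. Without the second CKD library, the log2 fold changes of Ctss, Ctsh, Tpp1, Atp6v1a and Tfeb were 1.05, -0.98, -0.55, -0.86 and -1.06. These were the members called in that fit, which left a single CKD library. Over all genes it called more than any other fit of this comparison, so these calls are not particular to the members. The 2 CKD libraries differed among the members, the second being above the first in 35 of 43, against 54.2% of all tested genes. The largest positive CKD changes, none of them called, were those of Ctss, Atp6v1b2 at 0.65 (SE 0.21, limma adjusted p = 0.111) and Lgmn at 0.64 (SE 0.28, limma adjusted p = 0.185).

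The models were also compared with each other, with the ApoE libraries again the upper group, so that these values share the ApoE libraries with the first comparison. Of the 43 members, 39 were higher in ApoE than in CKD, where 18.5% of all tested genes were, and 0 were lower, where 21.2% were, with 39.7% called in either direction. At an unadjusted p below 0.05 in limma there were 42 members, among 7055 of the 14074 genes. The median log2 fold change was 1.35, against -0.04 over all genes, with 1.79 for the hydrolases, 1.00 for the pump subunits and 0.83 for the regulators. Every ApoE library lay above every CKD library in 41 members, against 33% of all tested genes, and below in 2, Smpd1 and Scarb2, against 38%. The members that were not called were Gaa, Smpd1, Lamp2 and Scarb2, with log2 fold changes of 0.42, -0.30, 0.57 and -0.56.

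Ctss was again the extreme, at 4.17 (SE 0.39, limma adjusted p = 0.00133), followed by Ctsl at 3.55 (SE 0.35, adjusted p = 0.00158). Lipa differed by 3.41, Psap by 3.36, Gusb by 3.32 and Atp6v1b2 by 2.65, each with an adjusted p below that of Ctss in limma. All 3 regulators were higher in ApoE than in CKD, Tfeb by 0.83 (SE 0.16, limma adjusted p = 0.0108), Mitf by 0.84 (SE 0.11, limma adjusted p = 0.00339) and Tfe3 by 0.61 (SE 0.17, limma adjusted p = 0.0321). The call of Tfeb was lost without the second ApoE library (0.0531). Tfe3 lost its call without any library other than the second CKD library, with adjusted p from 0.0620 without the first CKD library to 0.126 without the second ApoE library. Tfeb thus stood lower in CKD than in both other groups, while Mitf and Tfe3 were higher in ApoE than in both.

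**Figure D4:**
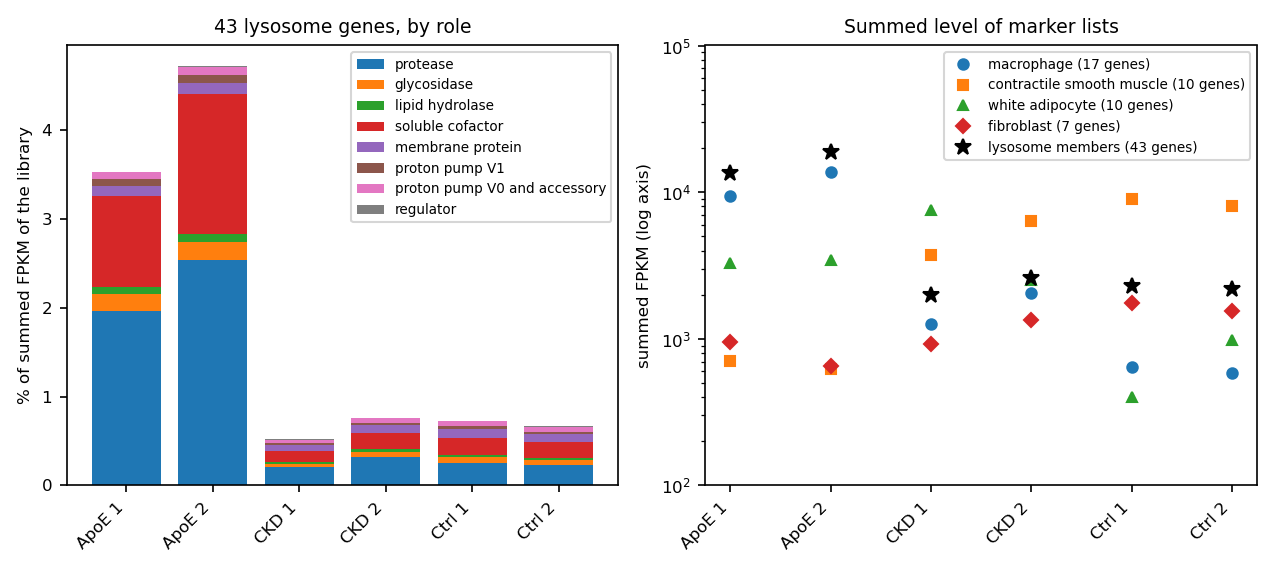
Left, the share of each library's summed FPKM taken by the 43 members, stacked by role. Right, summed FPKM of 4 marker lists and of the members on a log axis. The members took 3.53 and 4.71% in ApoE, 0.517 and 0.764% in CKD and 0.730 and 0.663% in Ctrl, the macrophage sums were also highest in ApoE, and the contractile sums were lowest there.

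As a share of all mRNA, measured as summed FPKM, the members took 3.53 and 4.71% of the ApoE libraries, 0.517 and 0.764% of the CKD libraries and 0.730 and 0.663% of the Ctrl libraries. The proteases alone took 1.97 and 2.53% in ApoE, 0.205 and 0.319% in CKD and 0.256 and 0.228% in Ctrl. Psap, Ctsb, Ctss, Ctsd and either Ctsz or Ctsl made up 68.8 and 73.3% of the members' FPKM in ApoE. The 5 most abundant members made up 50.2 and 47.8% in CKD and 50.4 and 50.7% in Ctrl, where Lamp1 stood among them. Within the pool, Lamp1 made up 2.36 and 1.94% in ApoE, 6.36 and 6.44% in CKD and 8.81 and 7.90% in Ctrl. Scarb2 likewise made up 0.355 and 0.199% in ApoE, 2.88 and 2.63% in CKD and 2.86 and 3.37% in Ctrl. The second ApoE library was above the first in 35 of 43 members, where this held for 33.4% of all tested genes. It also had the higher macrophage sum, with Lyz2 at 3885 FPKM in the first and 7240 in the second. The macrophage markers did not move together between these libraries. Adgre1, Csf1r, Cd14, Itgam, Fcgr1, Mrc1, Cd163, Aif1 and C1qa were lower in the second library, and the others on the list were higher.

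Beyond the members, 108 further genes of the lysosome and its supply were listed, 105 of them were found by symbol and 102 were tested. Over all tested genes 19.8% rose and 24.3% fell in ApoE against Ctrl, and the counts for other glycosidases and for autophagy lay near the 44.1% called in either direction. Other proteases were mixed in ApoE against Ctrl, 4 higher and 2 lower of 9, with Ctsk, the collagen-cutting cathepsin K, at 2.14, Dpp7 at 1.39, Prcp at 1.20 and Ctsf at -1.33. Other glycosidases and sulfatases were 5 higher and 1 lower of 15, with Galns at 2.71 and the hyaluronidase Hyal1 at -1.75. Other lipid hydrolases and activators were 8 higher and 1 lower of 9, led by Dnase2a at 2.71, Galc at 2.30, Pla2g15 at 2.05 and Gm2a at 1.72. Dnase2a cuts DNA and stands in that list as an acid hydrolase. Other membrane proteins were 9 higher and 2 lower of 17, led by Laptm5 at 4.11, a protein of blood cells, with Slc36a1 at 1.52, Cln3 at 1.26 and the chloride transporter partner Ostm1 at 0.99.

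Genes that tag and sort enzymes for the lysosome were 7 higher and 1 lower of 10, with Gnptab, which makes the mannose phosphate tag, at 1.28, Ap1s1 at 1.26 and the tag's receptors Igf2r and M6pr at 1.16 and 1.06. Other pump subunits were 7 higher and 0 lower of 9. At an unadjusted p below 0.05 in limma there were also 7, where 7542 of all 14074 tested genes reached it. The V0 isoforms Atp6v0d2, at 7.16, and Tcirg1, at 2.89, had the largest changes there, and Atp6v1g1 and Atp6ap2 stood at 1.09 and 1.05. Nutrient sensing genes on the lysosome surface were 8 higher and 2 lower of 16, with Fnip2 at 1.90, Lamtor1 at 1.51 and Zkscan3 at -0.96. Among these 8, Tfec and Rragd reached the level for testing only through the ApoE libraries. Autophagy genes did not share the direction, with 4 higher and 3 lower of 17 and a median of -0.07, among them Vps18 at 1.36, Atg7 at 1.03, Atg9a at -0.79 and Wipi1 at -1.06.

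In CKD against Ctrl, 0 of the 102 rose in limma and 4 fell, where 2.23% of all tested genes rose and 3.21% fell. The 4 of 102 lay near that background. At an unadjusted p below 0.05 in limma there were 18 of the 102 in either direction. This was a smaller share than the 4217 of all 14074 tested genes. No gene at all was called lower in CKD with no filter, with the adipocyte covariate, with only the 4 libraries compared, or when any Ctrl or ApoE library was left out, so all 4 calls were lost there. The 4 were Hyal1 at -1.04 (adjusted p = 0.0288), Laptm4b at -0.68 (adjusted p = 0.0416), the sorting adaptor Gga2 at -0.91 (adjusted p = 0.0392) and Zkscan3 at -1.0 (adjusted p = 0.023). Zkscan3, a zinc finger protein known from human cells as a repressor of autophagy and lysosome genes, stood at 8.37 and 7.47 FPKM in ApoE, 7.41 and 7.91 in CKD and 16.8 and 15.9 in Ctrl, lower than Ctrl in both models. In ApoE against CKD 18.5% of all tested genes were higher and 21.2% lower, 39.7% in either direction. Other proteases had 5 higher and 1 lower of 9. Other glycosidases and sulfatases had 5 and 1 of 15, near that share in either direction. Other lipid hydrolases had 6 and 0 of 9, membrane proteins 10 and 1 of 17, and sorting genes 7 and 0 of 10. Other pump subunits had 7 and 0 of 9, nutrient sensing genes 8 and 2 of 16, and autophagy genes 4 and 8 of 17.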

How the data were processed

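Polyadenylated RNA was prepared with the NEBNext Ultra RNA kit, per the labels' protocols. The deposited tables hold normalized values, which were judged to be FPKM by their behaviour, as the unit is named nowhere. They were made by the authors. In 5 of the 6 tables the identifiers and the FPKM values were stacked in the same column, a layout that the authors deposited and that was unfolded here as an "other" unit of mixed text and values. The build GRCm38 and the tools TopHat2, HISAT2 2.1.0 and Bowtie2 2.2.3 are named per the submitters' processing notes. What each tool did, how reads were counted and with which gene models is not given in the sources used here.

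Symbols, coordinates and exon lengths were joined by Ensembl identifier from GENCODE M21 (GRCm38) for 27730 of 27815 identifiers. Multiplied by exon length, 96.1 to 96.8% of low values were whole multiples of 1 read within a tolerance of 0.05, which gave the depth. Genes that reached 1 FPKM in 2 or more libraries entered a single limma fit of group means on log2(FPKM + 1), with a variance trend and robust spread (limma 3.58.1, R 4.3.3), with all 6 libraries sharing the estimate of spread. The log2 scale with a pseudocount of 1 understates the change of low genes. Each pair of groups was a contrast, and p-values were adjusted over all 14074 genes. The fit was also run on simulated libraries with independent noise. Those hold no shared shift in tissue composition, so that run does not check the p-values given here. Libraries of the same group differed by 43.5 (ApoE), 75.8 (CKD) and 19.5 (Ctrl) times the degrees of freedom in a chi-square of recovered reads, so none was a copy of another. Promoter windows came from RefSeq, near copies from blastn 2.17.0, and the remaining steps used Python 3.11.15.

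The members and lists were chosen with earlier results of these data known. All members could be named; in full stand the regulators and, in each other role, the members with the largest and next largest change in each comparison and the most abundant in Ctrl. From each other list up to 4 called genes with the smallest adjusted p were named, except for some that are not reported here. The 15 alternatives changed the pseudocount, the filter, the scaling, the model and the libraries included.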

Additional observations from a re-analysis of the deposited data

How the results depend on the processing

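Of the 43 members, 27 to 40 were called in ApoE against Ctrl under the 15 alternatives (37 as reported, 28 to 40 when a library was left out), and 29 to 41 in ApoE against CKD (39 as reported, 29 to 40 when a library was left out). No member changed direction while called. In CKD against Ctrl the count of 1 became 0 with no filter, with the replicate block, with adipocyte level as a covariate and with only the 4 libraries compared, and 0 to 5 when a library was left out. Where leaving out a library left a single one in a group, it was assumed to vary like the others. Under all 15 alternatives, 24 of 37 members remained called in ApoE against Ctrl and 28 of 39 in ApoE against CKD. The cause of the losses was not tested, and the matching share over all genes was not computed. Over all genes, calls in CKD against Ctrl were 766 as reported, 1 with no filter, 46 with the replicate block, 0 with the covariate, 1 with only the 4 libraries and 0 to 2366 without a library. In ApoE against Ctrl they were 6208, 1415 with the covariate and 2992 to 7022 without a library, and in ApoE against CKD 5592 and 2559 to 4941 without a library. Scaling without mitochondrial and the top 50 genes moved the median of all genes in ApoE against Ctrl to -0.13. Deviations of same-numbered libraries from their group means correlated across genes with r of 0.0457 (ApoE and Ctrl), -0.233 (CKD and Ctrl) and -0.0966 (ApoE and CKD). With 2 libraries a group, other differences between libraries can hide a pairing, so these values cannot decide whether the numbers pair the samples. The replicate block left 34, 0 and 36 members called in these 3 comparisons, and 5159, 46 and 4556 of all tested genes. With 2 libraries a group and whole tissue, composition and age limit what these values can separate.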
